A study of Bombyx mori with 12 samples.

Results

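Of the 1716 silkworm transposon entries measured, 7 entries named BmTE_RM1-644, BmTE_RM1-432, BmTE_RM1-413, BmTE_RM1-504, BmTE_RM1-57, BmTE_RM1-43 and BmTE_RM1-42 are described here. They were picked by name because their RNA was higher after knockdown of Siwi or of Maelstrom (Mael), so their RNA values are given as a description without a test. The Siwi-bound small RNA, which took no part in that choice, was tested. All 7 are listed with neither a class nor a superfamily, so no element type or encoded protein can be given for them.

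In germ cells, PIWI proteins are led to transposon transcripts by the small RNAs they carry, called PIWI-interacting RNAs or piRNAs. In the silkworm the PIWI proteins are Siwi and Ago3. Each cleaves RNA at sites matched by its piRNA, and the cut product can become a piRNA of the partner, an exchange called the ping-pong cycle. Mael is a conserved protein of this pathway, which the study's title links to the making of Siwi loaded with piRNA.

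The cells were BmN4, a line of Bombyx mori ovary that has an active piRNA pathway. All groups had siRNA (500 pmol) delivered by nucleofection and then a repeat of it, grew at 26 °C and were harvested at 10 days. Luciferase siRNA was the control of both assays. Poly-A RNA was read after luciferase (LucKD), Siwi (SiwiKD) and Mael (MaelKD) siRNA, and 22 to 35 nt RNA from immunoprecipitates of Flag-tagged Siwi was read after LucKD, Ago3 (Ago3KD) and MaelKD siRNA. The small RNA is thus the load of the tagged protein, and the RNA after Ago3 knockdown and the small RNA after Siwi knockdown were not analysed here. There were 2 libraries per group and 12 in all. Nothing in the labels tells if both libraries of a group are separate cultures. The p-values therefore reflect library-to-library spread alone, and that spread may be technical.

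Library totals, recovered from the steps of the deposited values, ran from 32487082 to 45155711 reads in RNA and from 1763511 to 4806161 reads in small RNA. Each of the 7 entries had 390 to 113757 reads in an RNA library and 166 to 8549 reads in a small RNA library. The same steps gave the entries' lengths, 3542 nt for BmTE_RM1-413, 3457 nt for BmTE_RM1-42, 3084 nt for BmTE_RM1-43, 1742 nt for BmTE_RM1-432, 1045 nt for BmTE_RM1-644, 888 nt for BmTE_RM1-504 and 848 nt for BmTE_RM1-57. All 7 passed the filter on low values (mean RPKM or RPM of 1 or more across a table) in both tables. The tables hold transposons and no host genes, so neither the knockdowns nor the cell type could be checked. How reads with several matches were counted is not given in the sources used here, so entries with shared sequence may share reads.

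RNA of all 7 entries was higher in both Siwi knockdown libraries than in both controls. In bulk RNA, a larger share of cells with the RNA and more of it per cell cannot be told apart. The difference was at least 2-fold for 7 of 7, on the log2(RPKM + 1) scale, a fold reached by 11.4% of the 490 entries that passed the filter. After Mael knockdown it was at least 2-fold for 6 of 7, against 3.67% of entries. These counts follow from how the entries were picked. For the 7 entries they were the same with trimmed-mean scaling, which assumes that most entries do not change. The shares of all entries that passed the filter were then 8.23% after Siwi and 3.70% after Mael knockdown. After Siwi knockdown the median log2 change was 0.15 over the 490 entries as deposited and -0.057 over the 486 that passed the filter with that scaling. They fell into 3 patterns, set apart by how the level after Mael knockdown compared with that after Siwi knockdown.

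BmTE_RM1-644, BmTE_RM1-432 and BmTE_RM1-413 stood high after both knockdowns and highest after Siwi knockdown. RNA of BmTE_RM1-644 was at 11.02 and 13.5 RPKM in the 2 control libraries, at 98.9 and 87.5 RPKM after Siwi knockdown and at 79.3 and 64.2 RPKM after Mael knockdown. Its means were 7.60 times and 5.85 times the control mean. On the log2(RPKM + 1) scale its change ranked 1 of the 490 entries in both comparisons. That scale understates the rise of entries with low RNA, and the ratios of means were not ranked. BmTE_RM1-432 was at 52.3 and 51.4 RPKM in control cells, 394 and 329 RPKM after Siwi knockdown and 234 and 238 RPKM after Mael knockdown. BmTE_RM1-413 was at 24.1 and 23.2 RPKM, 171 and 139 RPKM, and 97.8 and 102 RPKM in the same groups. For these 3 entries the 3 groups did not overlap, and the Mael mean was 0.770, 0.652 and 0.646 times the Siwi mean. The log2 differences of Mael from Siwi knockdown were -0.38, -0.61 and -0.62 as deposited, and -0.12, -0.34 and -0.35 with trimmed-mean scaling.

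BmTE_RM1-43 and BmTE_RM1-42 had the most RNA of the 7 and were about as high after Mael as after Siwi knockdown. BmTE_RM1-43 was at 121 and 97.5 RPKM in control cells, 456 and 355 RPKM after Siwi knockdown and 444 and 369 RPKM after Mael knockdown. BmTE_RM1-42 was at 239.6 and 159.6 RPKM, 733 and 511 RPKM, and 729 and 467 RPKM. For both, the knockdown groups overlapped each other and lay above both controls, and the log2 difference of Mael from Siwi knockdown was 0.010 and -0.069. With trimmed-mean scaling these differences were 0.27 and 0.20. Replicate 1 was the higher library in each group for both entries.

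BmTE_RM1-504 was high mainly after Siwi knockdown, and BmTE_RM1-57 was so to a lesser degree. BmTE_RM1-504 was at 10.3 and 13.3 RPKM in control cells, 61.7 and 75.9 RPKM after Siwi knockdown, and 19.9 and 18.1 RPKM after Mael knockdown. Its Mael mean was 1.61 times the control mean, against 5.82 times for Siwi knockdown, so for Mael knockdown alone the name of strongly derepressed entry does not hold for it. BmTE_RM1-57 was at 17.9 and 17.8 RPKM, 82.0 and 91.1 RPKM, and 44.6 and 33.8 RPKM. Its Mael mean was 2.20 times the control mean, rank 15 of the 490 entries by log2 change, against 4.86 times for Siwi knockdown. These 2 entries were the only ones of the 7 at least 2-fold lower after Mael than after Siwi knockdown, with log2 differences of -1.80 and -1.14, a fold reached by 7.35% of the 490 entries. With trimmed-mean scaling BmTE_RM1-504 stayed past it (-1.54) and BmTE_RM1-57 did not (-0.87), where 3.50% of 486 entries reached it.

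**Figure D1:**
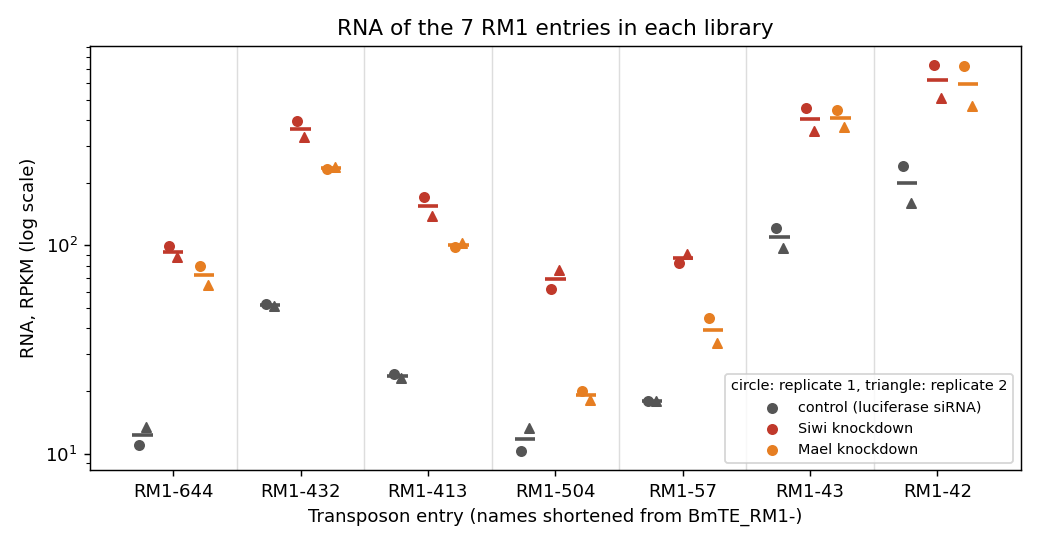
RNA of each entry (RPKM, log axis) in every library by group: circles are replicate 1, triangles replicate 2 and short lines the mean of both. Knockdown libraries lie above the controls for all 7 entries, and the orange Mael values sit near the control only for RM1-504, at 19.9 and 18.1 RPKM against 10.3 and 13.3 RPKM.

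Together the 7 entries held 4.90% ± 0.836 (SD, n = 2) of the RNA reads on listed transposons in control cells. The share was 14.5% ± 1.62 with Siwi knocked down and 14.3% ± 1.67 with Mael knocked down. This higher RNA share follows from how the entries were picked. Of the small RNA reads on listed transposons they held 1.11% ± 0.121 in control cells. That share was 1.73% ± 0.0624 with Ago3 knocked down and 0.642% ± 0.00682 with Mael knocked down. The gain with Ago3 knocked down was not common to the 7 entries. In RPM, the mean of BmTE_RM1-413 went from 1597 to 3224, while BmTE_RM1-644 and BmTE_RM1-504 fell to 0.566 and 0.497 times the control. BmTE_RM1-432, BmTE_RM1-57, BmTE_RM1-43 and BmTE_RM1-42 were at 1.06 to 1.22 times the control. Of the small RNA reads of the 7 entries, most were on BmTE_RM1-413, BmTE_RM1-43 and BmTE_RM1-42, the longest entries. Of their RNA reads, most were on BmTE_RM1-42 and BmTE_RM1-43, and BmTE_RM1-432 had more than the longer BmTE_RM1-413 in every library.

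In control cells the entries had more RNA than the median entry. The order of RNA levels was BmTE_RM1-42 (199.6 ± 56.6 RPKM, SD, n = 2 here and below), BmTE_RM1-43 (109 ± 16.4), BmTE_RM1-432 (51.8 ± 0.623), BmTE_RM1-413 (23.7 ± 0.640), BmTE_RM1-57 (17.8 ± 0.0409), BmTE_RM1-644 (12.3 ± 1.74) and BmTE_RM1-504 (11.8 ± 2.11). Libraries of the last 2 overlapped, and those of the other neighbours did not. The median of the 490 entries was 4.73 RPKM.

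Small RNA in control cells formed 2 tiers once it was divided by entry length. The upper tier held BmTE_RM1-413 at 451 ± 61.7 RPM per kb, BmTE_RM1-57 at 450.2 ± 29.6 RPM per kb and BmTE_RM1-644 at 449.8 ± 38.3 RPM per kb, which overlapped. The lower tier held BmTE_RM1-43 at 262 ± 7.97 RPM per kb, BmTE_RM1-42 at 261 ± 14.2 RPM per kb, BmTE_RM1-432 at 235 ± 34.03 RPM per kb and BmTE_RM1-504 at 210.4 ± 4.97 RPM per kb, where each overlapped its neighbour in the order. The median of the same 490 entries was 79.6 RPM per kb, and the 7 entries ranked between 83 and 136 among them. The entries with the most RNA, BmTE_RM1-42 and BmTE_RM1-43, were thus in the lower tier of small RNA. BmTE_RM1-504, with the lowest mean RNA of the 7, was in that tier too and had the lowest mean there.

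**Figure D2:**
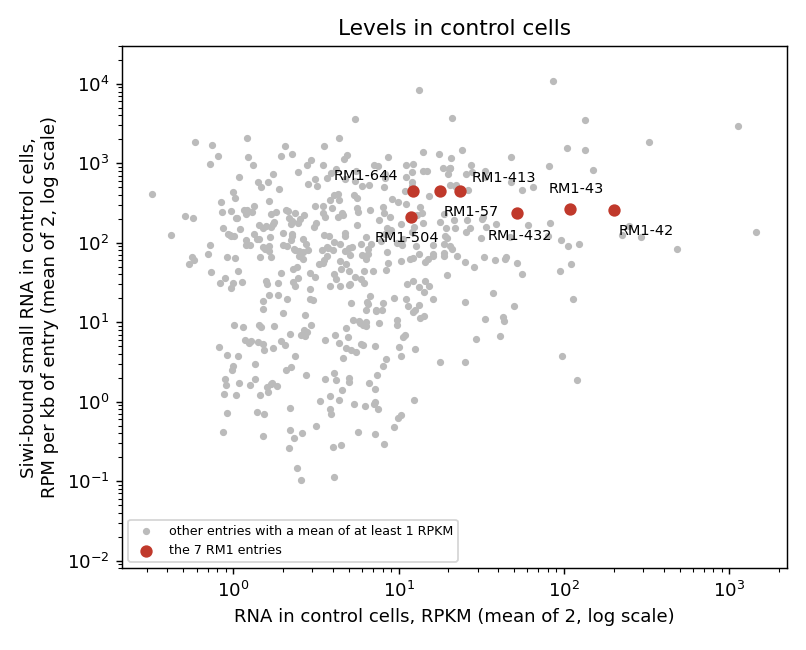
Levels in control cells, with RNA on the x axis (RPKM) and Siwi-bound small RNA per kb of entry on the y axis (RPM per kb), both means of 2 libraries on log axes; 484 entries are drawn and 6 listed at 0 are not. The 7 entries span 11.8 to 199.6 RPKM in RNA but only 210.4 to 451 RPM per kb in small RNA.

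After Ago3 knockdown the small RNA of the 7 entries did not move in 1 direction. That of BmTE_RM1-413 and BmTE_RM1-432 rose, that of BmTE_RM1-504 and BmTE_RM1-644 fell, and the other 3 did not pass the test. Values were tested as log2(RPM + 1) with limma over all 1004 entries that passed the filter, with Benjamini-Hochberg adjustment and a threshold of 0.05. Of all tested entries 16.8% were called higher and 40.6% lower, beside 2 of 7 in each direction here.

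BmTE_RM1-413 had the highest RPM of the 7, and its mean rose to 2.02 times the control. It was at 1752 and 1443 RPM in control cells and at 3273 and 3176 RPM after Ago3 knockdown, with no overlap. The log2 change was 1.02 ± 0.08 (standard error of the fit, as below; limma, adjusted p = 4.66e-14). BmTE_RM1-432, at 451 and 367 RPM in control cells and then 495 and 506 RPM, rose by 0.30 ± 0.10 on the log2 scale (limma, adjusted p = 0.00812). This call rested on single libraries: without LucKD replicate 2 the change was 0.15 and without Ago3KD replicate 2 it was 0.28, and neither passed the test.

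BmTE_RM1-504 and BmTE_RM1-644 lost small RNA after Ago3 knockdown. BmTE_RM1-504 went from 190.0 and 184 RPM to 94.2 and 91.4 RPM, a log2 change of -1.002 ± 0.12 (limma, adjusted p = 2.18e-09). BmTE_RM1-644 went from 498 and 442 RPM to 283 and 248 RPM, a log2 change of -0.82 ± 0.10 (limma, adjusted p = 2.76e-09). In both, the knockdown libraries lay below both controls.

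BmTE_RM1-42, BmTE_RM1-43 and BmTE_RM1-57 stayed close to the control level. BmTE_RM1-42 was at 938 and 869 RPM in control cells and, with Ago3 knocked down, at 969.7 and 954 RPM, a log2 change of 0.092 with a 95% interval of -0.073 to 0.26. BmTE_RM1-43 was at 826 and 791 RPM and then 874 and 844 RPM, with an interval of -0.081 to 0.26. BmTE_RM1-57 was at 399 and 364 RPM and then 417 and 431 RPM, with an interval of -0.038 to 0.34. In each, both knockdown libraries were a little above both controls.

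These calls depended on how libraries were scaled. The median log2 change of all tested entries was -0.28 as deposited and -0.026 with trimmed-mean scaling. With that scaling BmTE_RM1-42 (0.36), BmTE_RM1-43 (0.36) and BmTE_RM1-57 (0.43) were called higher as well, which made 5 of 7 higher and 2 of 7 lower, against 24.7% and 31.2% of entries. BmTE_RM1-413 (1.29), BmTE_RM1-432 (0.57), BmTE_RM1-504 (-0.73) and BmTE_RM1-644 (-0.55) kept their direction and their calls.

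**Figure D3:**
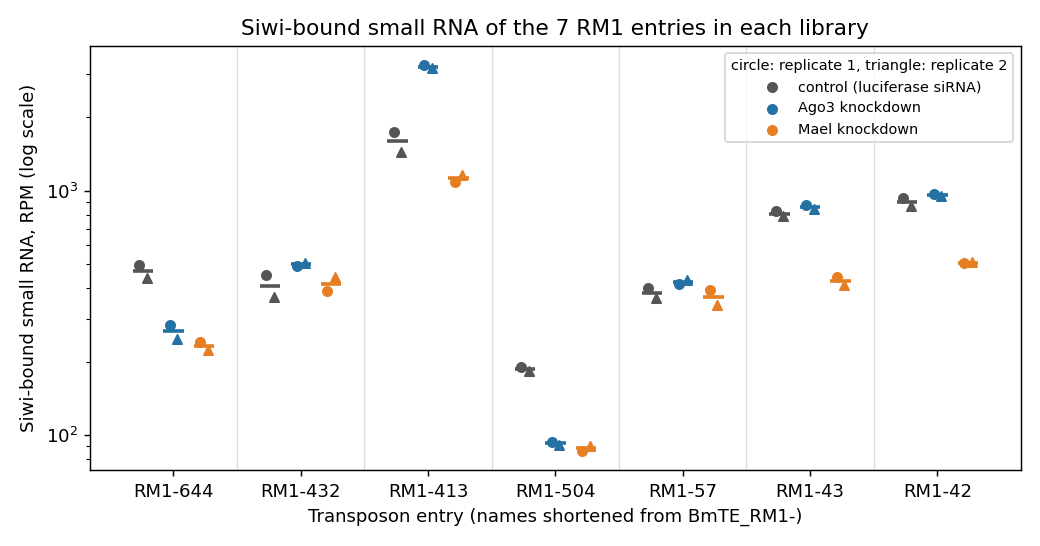
Siwi-bound small RNA of each entry (RPM, log axis) in every library by group: circles are replicate 1, triangles replicate 2 and short lines the mean of both. Blue Ago3 values lie above the control for RM1-413 (3273 and 3176 RPM against 1752 and 1443 RPM) and below it for RM1-644 and RM1-504, and orange Mael values lie below the control for RM1-43 and RM1-42.

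After Mael knockdown the small RNA of 5 of 7 entries fell and that of none rose, where 44.4% of the 1004 tested entries were called lower and 11.8% higher. The median log2 change of the 7 was -0.83, against -0.44 over all tested entries. The control libraries are those of the Ago3 comparison, so the comparisons are not independent.

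BmTE_RM1-43 and BmTE_RM1-42 lost small RNA after Mael knockdown. BmTE_RM1-43 went from 826 and 791 RPM to 444 and 410.3 RPM, a mean ratio of 0.528 and a log2 change of -0.92 ± 0.08 (limma, adjusted p = 2.65e-12). BmTE_RM1-42 went from 938 and 869 RPM to 505 and 512 RPM, a mean ratio of 0.563 and a log2 change of -0.83 ± 0.08 (limma, adjusted p = 2.29e-11). Neither overlapped with the controls.

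BmTE_RM1-504 and BmTE_RM1-644 fell after Mael knockdown too. BmTE_RM1-504 reached 86.3 and 90.1 RPM, a log2 change of -1.07 ± 0.12 (limma, adjusted p = 4.41e-10). BmTE_RM1-644 reached 242 and 223 RPM, a log2 change of -1.01 ± 0.10 (limma, adjusted p = 1.83e-11). Their RNA after the same knockdown differed, at 1.61 times the control for BmTE_RM1-504 and 5.85 times for BmTE_RM1-644.

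BmTE_RM1-413 fell to 1092 and 1162 RPM after Mael knockdown, a log2 change of -0.50 ± 0.08 (limma, adjusted p = 1.55e-06), in the direction opposite to its change after Ago3 knockdown. BmTE_RM1-432 was at 390 and 444 RPM, within the range of its controls, with a 95% interval of the log2 change of -0.16 to 0.23. BmTE_RM1-57 was at 394 and 339.7 RPM, a group that overlapped its controls, with an interval of -0.25 to 0.13. RNA of BmTE_RM1-432 and BmTE_RM1-413 was 4.55 times and 4.23 times the control after Mael knockdown.

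In this comparison the median over all tested entries was -0.44 as deposited and -0.0091 after trimmed-mean scaling. With it BmTE_RM1-413 was at a log2 change of -0.0034 and was not called, while BmTE_RM1-432 (0.52) and BmTE_RM1-57 (0.43) were called higher. BmTE_RM1-42 (-0.33), BmTE_RM1-43 (-0.43), BmTE_RM1-504 (-0.58) and BmTE_RM1-644 (-0.52) stayed called lower. That made 4 of 7 lower and 2 of 7 higher, against 22.6% and 23.4% of entries. The fall of BmTE_RM1-413 also missed the threshold with no filter on low values.

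Set directly against Ago3 knockdown, Mael knockdown left less small RNA on 4 of 7 entries and more on none, where 31.7% of the 1004 tested entries were called lower and 20.7% higher. BmTE_RM1-413 differed most of the 7, with a mean after Mael knockdown 0.349 times that after Ago3 knockdown and a log2 difference of -1.52 ± 0.08 (limma, adjusted p = 1.11e-19). BmTE_RM1-43 differed by -1.01 ± 0.08 and BmTE_RM1-42 by -0.92 ± 0.08 on the log2 scale (limma, adjusted p = 1.25e-13 and adjusted p = 9.06e-13). BmTE_RM1-432 differed by -0.26 ± 0.10 (limma, adjusted p = 0.0194).

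The entries that had fallen after both knockdowns did not pass this test. The 95% interval of the log2 difference was -0.31 to 0.17 for BmTE_RM1-504 and -0.39 to 0.0085 for BmTE_RM1-644. For BmTE_RM1-57 it was -0.40 to -0.023, and the adjusted p was 0.0549 (limma). That entry passed with a pseudocount of 5, with a filter of at least 10 RPM and with only the 4 libraries compared. The values were then close to the threshold (limma, adjusted p = 0.0482, 0.0383 and 0.0329). The small difference of BmTE_RM1-432 was lost without Ago3KD replicate 1 (-0.28), without Ago3KD replicate 2 (-0.25) and without MaelKD replicate 1 (-0.17), while BmTE_RM1-57 passed without LucKD replicate 1, without LucKD replicate 2 (both -0.21) or without MaelKD replicate 1 (-0.32).

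With trimmed-mean scaling the median of all tested entries moved from -0.34 to -0.15, and 3 of 7 entries were lower and none higher, against 22.6% and 25% of entries. These 3 were BmTE_RM1-413 (-1.30), BmTE_RM1-43 (-0.79) and BmTE_RM1-42 (-0.70). BmTE_RM1-432 was at -0.045, and the signs of BmTE_RM1-504 (0.15), BmTE_RM1-57 (0.0068) and BmTE_RM1-644 (0.028) turned.

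**Figure D4:**
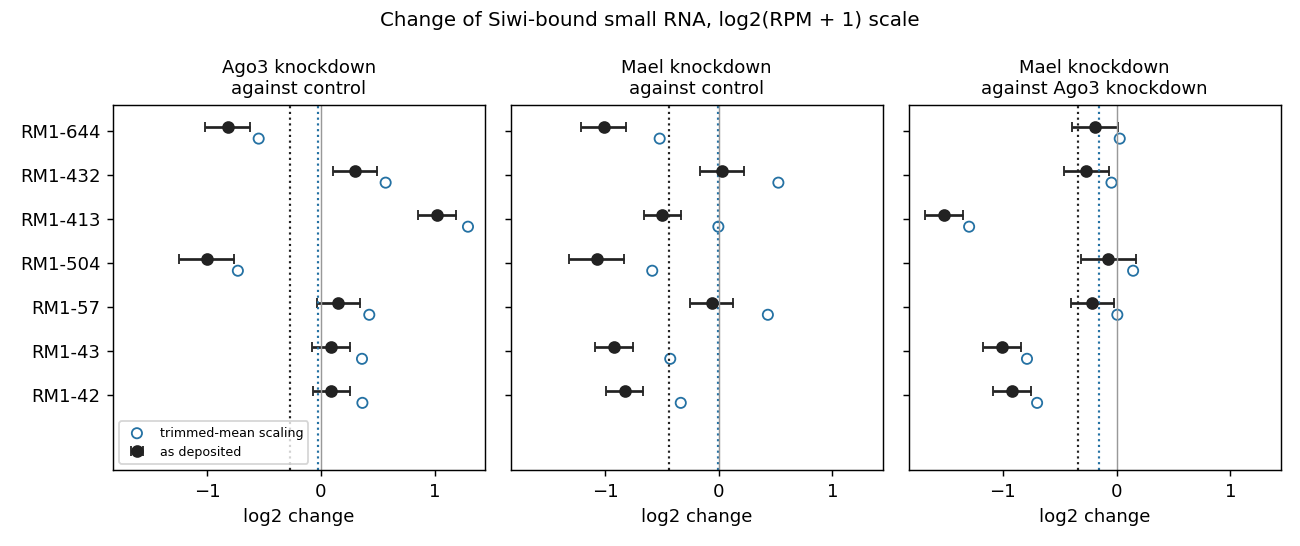
Log2 change of Siwi-bound small RNA for each entry in the 3 comparisons: filled points are values as deposited with their 95% intervals, open points the same with trimmed-mean scaling, and dotted lines the median of all tested entries under each. RM1-413 lies to the right after Ago3 knockdown (1.02) and farthest to the left of the 7 in the direct comparison (-1.52).

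Ratios between entries within a library do not depend on library scaling. They are given for 3 pairs chosen after their values were seen. RNA of BmTE_RM1-432 was 2.17 and 2.21 times that of BmTE_RM1-413 in control cells, 2.31 and 2.37 times after Siwi knockdown, and 2.39 and 2.33 times after Mael knockdown, all in RPKM. Per kb of entry, the small RNA of BmTE_RM1-432 was 0.524 and 0.518 times that of BmTE_RM1-413 in control cells, 0.308 and 0.324 times after Ago3 knockdown, and 0.726 and 0.778 times after Mael knockdown. The RNA ratio was lowest in the 2 controls and overlapped between the knockdowns, while the small RNA ratio took a separate level in each of the 3 groups.

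BmTE_RM1-43 and BmTE_RM1-42 kept a ratio near 1 in small RNA per kb in all 6 libraries. It was 0.987 and 1.02 in control cells, 1.01 and 0.991 after Ago3 knockdown, and 0.987 and 0.898 after Mael knockdown. Their RNA ratio was 0.504 and 0.611 in control cells, 0.622 and 0.694 after Siwi knockdown, and 0.609 and 0.790 after Mael knockdown, where the last group overlapped both others. Whether these 2 entries share reads was not tested.

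BmTE_RM1-644 and BmTE_RM1-413 had the same small RNA per kb in control cells, with ratios of 0.964 and 1.04. The ratio was 0.293 and 0.265 after Ago3 knockdown and 0.751 and 0.651 after Mael knockdown. Their RNA ratio was 0.457 and 0.581 in control cells, 0.579 and 0.629 after Siwi knockdown, and 0.811 and 0.627 after Mael knockdown. In small RNA the 3 groups were apart, while in RNA Siwi knockdown overlapped both other groups.

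**Figure D5:**
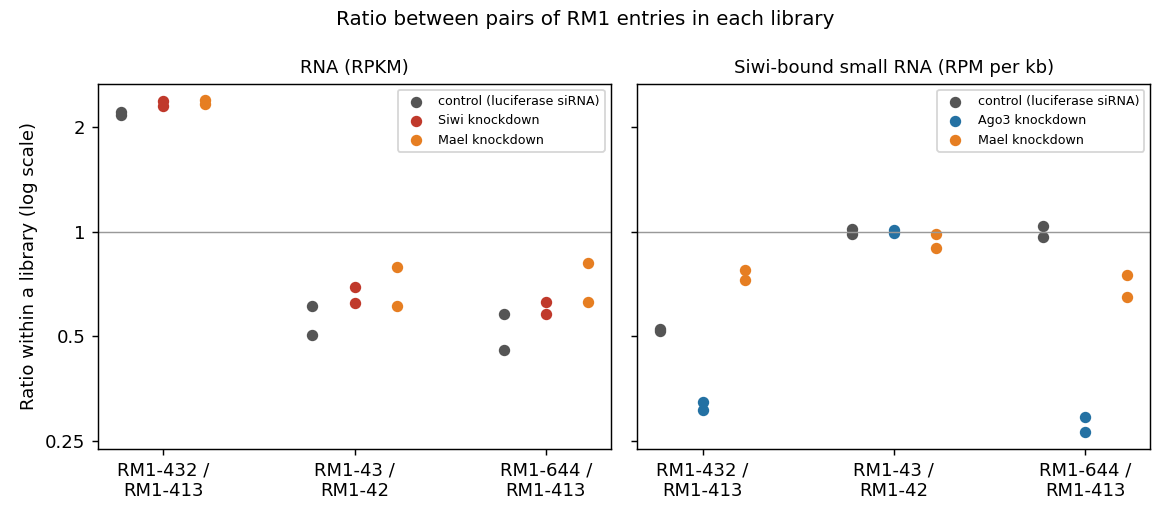
Ratio between 2 entries within each library (log axis), in RNA (left, RPKM) and in Siwi-bound small RNA (right, RPM per kb), with 1 point per library in the colour of its group. RM1-432 over RM1-413 stays between 2.17 and 2.39 in RNA but moves from 0.308 to 0.778 in small RNA.

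The entries most like the 7 were found by the correlation of their log2 values over the 12 libraries, centred within each table, with the mean profile of the 7, among 446 other entries that passed both filters. RNA values that chose the 7 are part of that profile, so this is a description. Small RNA values are part of it too. The tests of these entries' small RNA given below are therefore not independent of how the entries were picked. Closest was Neet, a SINE (a short retroelement that borrows the enzymes of other elements), with Pearson's r = 0.98. Its RNA was at 1.52 and 1.60 RPKM in control cells, 6.92 and 6.07 RPKM after Siwi knockdown and 5.87 and 4.78 RPKM after Mael knockdown. Its small RNA was at 335 and 344 RPM in control cells, at 388 and 398 RPM with Ago3 knocked down, and at 258 and 243 RPM with Mael knocked down. The next 4, all without a class, were BmTE_RM5-3163 (r = 0.97), BmTE_RM5-2584 (r = 0.97), BmTE_RM6-5356 (r = 0.95) and BmTE_RM6-4376 (r = 0.93).

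As deposited, small RNA was called lower after Mael knockdown in Neet and in each other entry most like the 7. Of all tested entries 44.4% were called lower. For Neet the log2 change was -0.44 ± 0.09 (limma, adjusted p = 0.000103), and with trimmed-mean scaling it was 0.053 and not called. The small RNA of these entries otherwise differed in its changes. BmTE_RM5-2584 went from 785 and 798 RPM in control cells to 712 and 675 RPM after Ago3 knockdown, a log2 change of -0.19 ± 0.08 (limma, adjusted p = 0.0449), which was 0.082 and not called with trimmed-mean scaling. Its values with Mael knocked down were 583 and 593 RPM, a log2 change of -0.43 (limma, adjusted p = 2.39e-05), which was 0.065 and not called with that scaling. BmTE_RM6-5356 was at 87.0 and 70.9 RPM in control cells, at 98.0 and 83.6 RPM with Ago3 knocked down, and at 43.3 and 35.3 RPM with Mael knocked down. Its fall in the last group was called under both scalings, at -0.99 as deposited (limma, adjusted p = 5.67e-07) and -0.50 with trimmed-mean scaling. After Ago3 knockdown Neet (0.21), BmTE_RM5-3163 (0.039) and BmTE_RM6-5356 (0.20) were not called as deposited and were called higher with trimmed-mean scaling (0.48, 0.31 and 0.47). For BmTE_RM5-3163 that call was close to the threshold (limma, adjusted p = 0.0494).

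BmTE_RM6-4376 went from 275 and 266 RPM in control cells to 499 and 462 RPM after Ago3 knockdown, a log2 change of 0.83 ± 0.10 (limma, adjusted p = 1.11e-09). After Mael knockdown it was at 202 and 192 RPM, a log2 change of -0.45 ± 0.10 (limma, adjusted p = 9.5e-05), which was 0.038 and not called with trimmed-mean scaling. BmTE_RM5-3163, with RNA at 10.7 and 11.4 RPKM in control cells, 46.0 and 44.97 RPKM after Siwi knockdown and 39.7 and 39.4 RPKM after Mael knockdown, had small RNA at 117 and 105 RPM in control cells, at 120.2 and 108 RPM with Ago3 knocked down, and at 60.2 and 71.6 RPM with Mael knocked down. Its fall after Mael knockdown, -0.75 on the log2 scale (limma, adjusted p = 6.41e-06), was not called with trimmed-mean scaling (-0.26).

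RNA values picked the 7 out of the entries whose names begin with BmTE_RM1, so the RNA of the others is given as a description. Of 531 such entries 184 passed the RNA filter, and 8 were at least 2-fold higher after Siwi knockdown and 1 after Mael knockdown, with median log2 changes of -0.027 and -0.069. In small RNA 329 were tested, of which 68 were higher and 122 lower after Ago3 knockdown and 31 higher and 114 lower after Mael knockdown. Their median log2 changes in small RNA were -0.20 and -0.36. With trimmed-mean scaling 87 were higher and 91 lower after Ago3 knockdown, and after Mael knockdown the balance turned, with 67 higher, 48 lower and a median of 0.055. Among the other entries with no class, 119 of 606 were higher and 203 lower after Ago3 knockdown, and 59 higher and 237 lower after Mael knockdown. With trimmed-mean scaling these counts were 164 and 150 of 607 after Ago3 knockdown and 121 and 113 after Mael knockdown.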

How the data were processed

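Both tables, of transposon RNA and of Siwi-bound small RNA from BmN4 cells, were used as deposited. RNA values are RPKM and small RNA values RPM, both units as named in the deposited file headers. The submitters' processing notes list STAR 2.7.9a, Trim Galore, bedtools, SAMtools, Bowtie 1.3.0 and cutadapt 3.1. Which tool did what, the genome build and the counting of reads with several matches are not stated in any source used here. Library totals and entry lengths were recovered from the steps of the values: 100% of RPM values were whole reads within 0.001 reads, and RPKM of 978 of 978 entries above 0 were whole at the shortest length that fitted, which matched both lengths stated in entry names. Libraries of a group were farther apart than counting noise allows (mean chi-square 28.8 to 43.8 for RNA entries, 3.36 to 5.74 for small RNA entries), so none was treated as a duplicate.

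Small RNA was tested as log2(RPM + 1) with limma 3.58.1 (R 4.3.3; lmFit, eBayes with a trend) for entries with a mean of at least 1 RPM, all 6 libraries sharing the spread, two-sided, with Benjamini-Hochberg adjustment over all tested entries. A log2 change on this scale understates that of low entries. The procedure was also run on simulated counts in which a minority of entries changed, up and down alike, in the Ago3 group only. No shift common to most entries was simulated, so that run cannot show how the test does under such a shift. RNA was summarised on the same scale with no test, since RNA chose the entries. Alternatives were other pseudocounts and filters, trimmed-mean scaling (edgeR 4.0.16), the replicate number as a block, fewer libraries and, chosen after seeing the data, edgeR's quasi-likelihood test on the recovered reads. Named entries were all 7 and the 5 with the most similar profile. The entries, lists and tests were chosen with earlier results of these data known.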

Additional observations from a re-analysis of the deposited data

How the results depend on the processing

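The 3 counts of small RNA calls stayed within 1.5 times under each alternative run. Ago3 against control gave 577 calls, Mael against control 564 and Mael against Ago3 526. Leaving out 1 library gave 494 to 588, 482 to 563 and 445 to 523. With edgeR on recovered reads there were 606, 574 and 512 calls, and the calls of the 7 entries were those of limma. The split of higher and lower calls depended on scaling: 169 and 408 became 248 and 314 with trimmed-mean scaling after Ago3 knockdown, 118 and 446 became 235 and 227 after Mael knockdown, and 208 and 318 became 252 and 227 between them. Of 294 recomputed small RNA changes of the 7 entries, 264 kept direction and side of the threshold, 10 lost and 12 gained a call with the same sign, and 8 turned sign. With trimmed-mean scaling BmTE_RM1-57 turned to 0.43, and was then called, for Mael against control and to 0.0068 for Mael against Ago3, where BmTE_RM1-504 turned to 0.15 and BmTE_RM1-644 to 0.028. Without single libraries, Mael against control ran from -0.12 to 0.18 for BmTE_RM1-432 and from -0.17 to 0.045 for BmTE_RM1-57. With no filter on low values, BmTE_RM1-432 lost both of its calls and BmTE_RM1-413 that for Mael against control. The cause was not tested. In small RNA, deviations of same-numbered libraries correlated at -0.0088, -0.046 and 0.043, so no shared effect of the replicate number was seen. These correlations cannot show whether same-numbered libraries were prepared together. RNA, which was not tested, had no such check. With the replicate block there were 579, 567 and 528 calls, and BmTE_RM1-57 and BmTE_RM1-644 passed for Mael against Ago3. RNA at least 2-fold higher after both knockdowns held for 6 of 7 entries, and for 5 with a pseudocount of 5 or without MaelKD replicate 1. Depth was 166 reads or more per entry and small RNA library, and each group held 2 libraries.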
